A study of Canis lupus familiaris with 9 samples.

Results

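The genes described here encode the enzymes that build glycosphingolipids, from the first step of ceramide synthesis to the globotriaosylceramide synthase A4GALT and its neighbors in the pathway. The set holds 8 genes. It was chosen by pathway around A4GALT, which earlier results of these data had shown to differ between the groups, so its own ratios below are a description. A row was found for 6 of the 8 among 12696 protein coding genes, namely SPTLC1, SPTLC2, UGCG, B4GALT5, A4GALT and ST3GAL5. B4GALT6 and B4GALNT1 had no row and were not analysed here.

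RNA was sequenced from 9 cultures of macrophages grown from the blood monocytes of healthy, spayed female beagles about 2 years old. All cultures were differentiated with macrophage colony-stimulating factor (M-CSF), so every group carries that treatment. M2 macrophages were then exposed to IL-4 together with IL-13, M1 macrophages to IFN-γ, and M0 macrophages to no added cytokine, each for a day before RNA extraction. Each group had 3 samples, and the same 3 sample descriptions recur in every group, which was read as 3 dogs. The cultures were enriched by adherence and not sorted. The values are the authors' mean normalized counts, 1 for each group, on the scale of DESeq2. They carry no spread between dogs, so no ratio below has a replicate error or a p-value, and whether the samples of any pair of groups overlapped is not known from them. The study's methods state a nominal number of raw reads per sample, but the reads counted in each sample are not known from these values. Because RNA was taken from whole cultures, fewer cells of a type and less RNA per cell cannot be told apart.

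Glycosphingolipids are membrane lipids in which a ceramide carries a sugar chain on the outer face of the cell. Serine palmitoyltransferase starts ceramide synthesis in the endoplasmic reticulum, UGCG adds glucose to ceramide at the Golgi, and B4GALT5 or B4GALT6 adds galactose to give lactosylceramide. Lactosylceramide is a branch point. A4GALT extends it to globotriaosylceramide, known as CD77, the receptor of Shiga toxin and the lipid stored in Fabry disease. ST3GAL5 sialylates it to the ganglioside GM3, B3GNT5 opens the lacto and neolacto series, and B4GALNT1 makes the more complex gangliosides. In human cells these lipids shape membrane microdomains and the receptors that sit in them.

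A4GALT was high in M2 macrophages and low in M1 macrophages. Its mean was 9157 normalized counts in M2, 1615 in M1 and 3209 in M0. The M2 mean was 2.85-fold that of M0, a log2 ratio of 1.51, which was the 165th highest among 10787 genes with a mean of at least 50 in the higher of the groups compared. The M1 mean was 1.99-fold below that of M0, a log2 ratio of -0.99. That ratio was just short of the 2-fold limit used for counting below, and with the group means rescaled to equal sums it was -1.06, past the limit. Between the polarized groups the M2 mean was 5.67-fold the M1 mean (log2 ratio 2.50, the 175th highest of 10737 genes). M2 and M1 were thus on opposite sides of M0, and since both were set against the same M0 cultures, their ratios are not independent of each other.

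**Figure D1:**
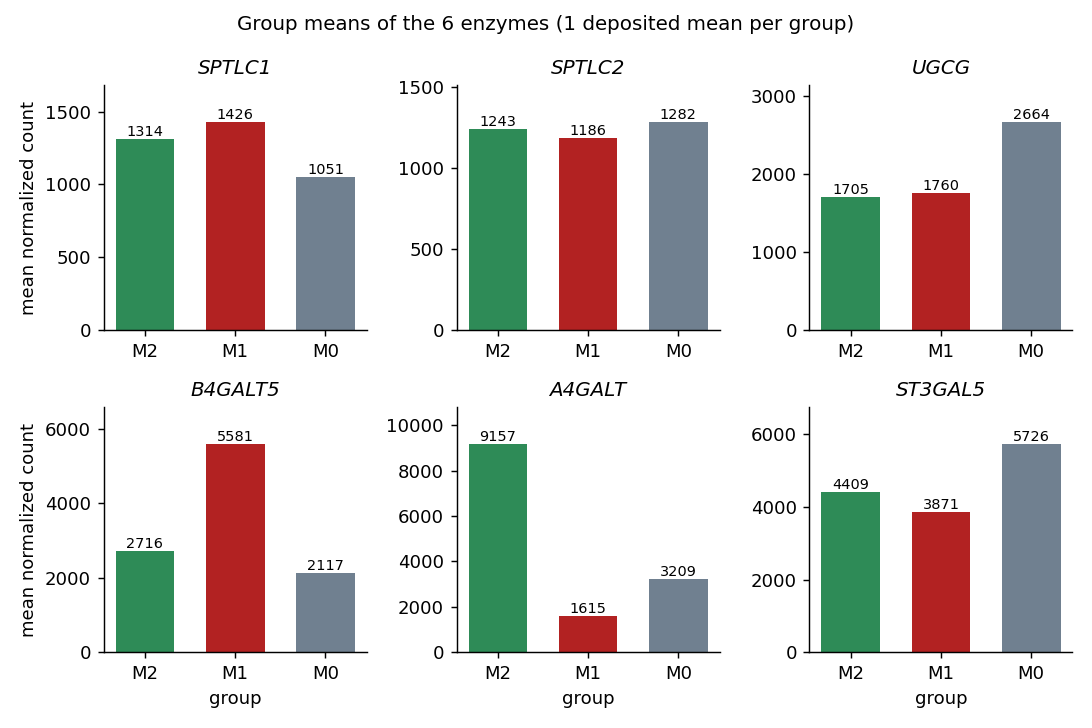
Mean normalized count (vertical axis, linear from 0, a scale of its own in each panel) of the 6 enzymes in M2, M1 and M0 macrophages (horizontal axis). Each bar is 1 deposited group mean, with no error bar because no values per sample were used, and A4GALT runs from 1615 in M1 to 9157 in M2 while SPTLC2 stays between 1186 and 1282.

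B4GALT5, the galactosyltransferase that makes the lactosylceramide on which A4GALT acts, had another order. Its mean was 2716 normalized counts in M2, 5581 in M1 and 2117 in M0. The M1 mean was 2.64-fold that of M0 (log2 ratio 1.40, the 336th highest of 10790 genes), and the M2 mean was 1.28-fold that of M0 (log2 ratio 0.36). M2 macrophages were 2.06-fold below M1 macrophages for this gene, at a log2 ratio of -1.04, just past the 2-fold limit. With the group means rescaled to equal sums that ratio was -1.001. B4GALT5 was therefore high in the group in which A4GALT was low.

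UGCG, the glucosyltransferase that commits ceramide to this pathway, was lower in both polarized groups. Its mean was 1705 normalized counts in M2 and 1760 in M1, against 2664 in M0. The log2 ratios to M0 were -0.64 for M2 and -0.60 for M1, and the polarized groups differed from each other by only -0.05 (M2 over M1). Short of 2-fold as they are, 86.7% of all genes had a smaller ratio in size for M2 over M0, and 70.6% for M1 over M0.

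ST3GAL5, the GM3 synthase, was likewise lower in both. Its mean was 4409 normalized counts in M2 and 3871 in M1, against 5726 in M0. The log2 ratios to M0 were -0.38 for M2 and -0.56 for M1. The ratio of M2 over M1 was 0.19, smaller in size than the median over all genes of that comparison, which was 0.28.

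The subunits of serine palmitoyltransferase varied least. SPTLC1, which the catalytic subunits need for activity, had means of 1314 in M2, 1426 in M1 and 1051 in M0, with log2 ratios to M0 of 0.32 for M2 and 0.44 for M1. SPTLC2, a catalytic subunit, had means of 1243 in M2, 1186 in M1 and 1282 in M0, with log2 ratios to M0 of -0.04 for M2 and -0.11 for M1. The highest group mean of SPTLC2 was 1.08-fold its lowest, and that of SPTLC1 1.36-fold. By the same measure the other enzymes stood at 1.48-fold for ST3GAL5, 1.56-fold for UGCG, 2.64-fold for B4GALT5 and 5.67-fold for A4GALT.

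Counted at a ratio of at least 2-fold with a mean of at least 50 in the higher group, 1 of the 6 enzymes was higher in M2 than in M0 (A4GALT) and 0 were lower. All 6 had a mean of at least 50 in every group. Over all genes 2.99% were that much higher in M2 and 3.49% that much lower. In M1 against M0, 1 of 6 was higher (B4GALT5) and 0 were lower, beside 5.56% higher and 8.77% lower over all genes. In M2 against M1, 1 was higher (A4GALT) and 1 was lower (B4GALT5), beside 7.00% and 5.72% of all genes. The median log2 ratio of the 6 was 0.14 for M2 over M0, -0.34 for M1 over M0 and 0.01 for M2 over M1, where the medians of all genes were 0.02, 0.01 and -0.003. With 6 genes, of which A4GALT was picked on these comparisons, nothing is read from the counts.

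**Figure D2:**
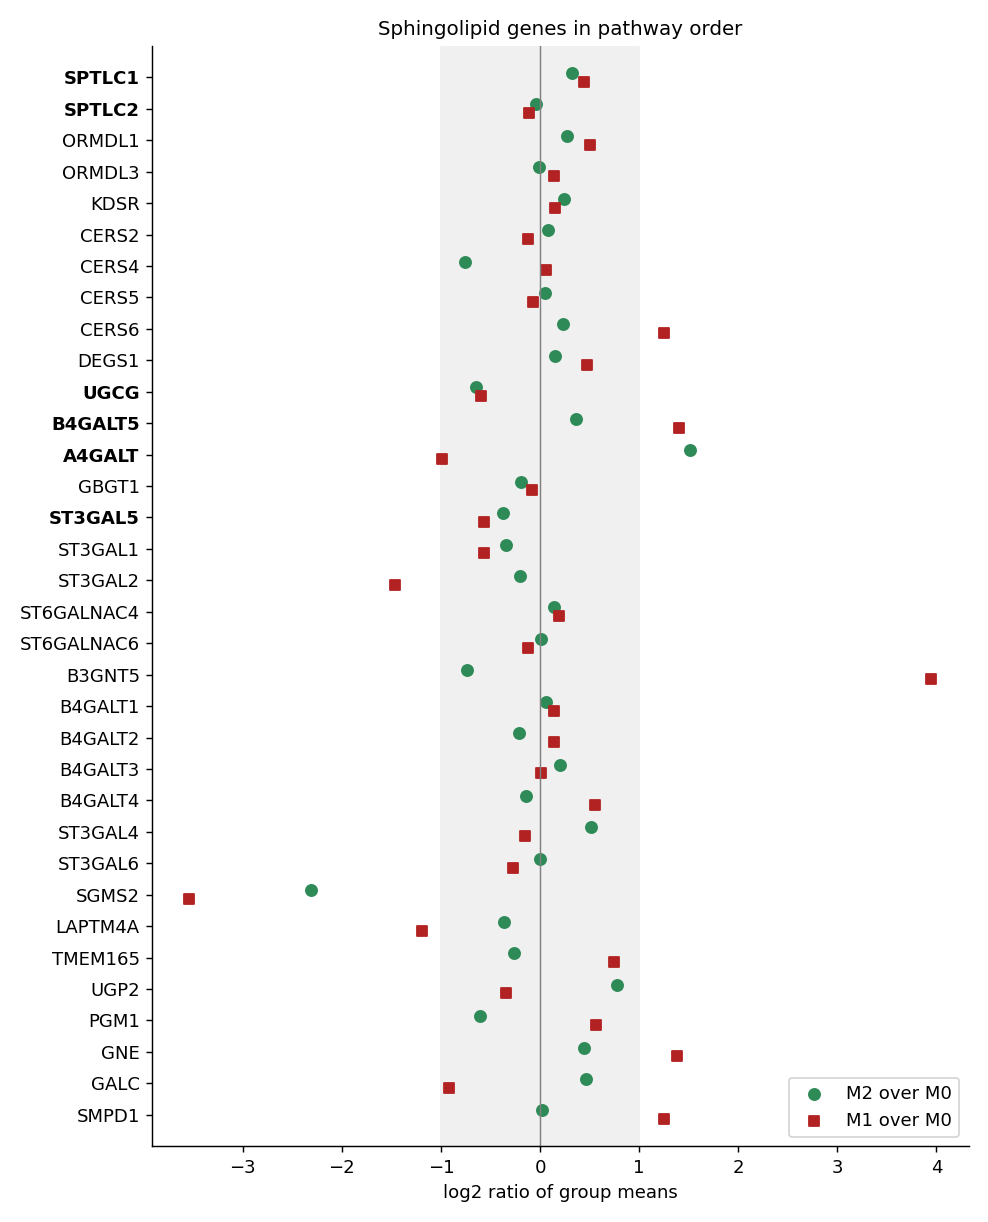
Log2 ratio of group means (horizontal axis) for 34 sphingolipid genes (rows), with circles for M2 over M0, squares for M1 over M0, and the region short of 2-fold shaded. The rows are 26 genes of the synthesis lists and, from SGMS2 down, 8 other genes past 2-fold in at least 1 comparison, with the 6 enzymes in bold: A4GALT lies at 1.51 and -0.99, and B3GNT5 and SGMS2 hold the outermost squares at 3.95 and -3.54.

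The enzymes that compete for lactosylceramide were set against each other by the difference of their log2 ratios, a quantity that any common scaling of a group leaves unchanged. B3GNT5, the transferase that opens the lacto and neolacto series, had a mean of 44.7 normalized counts in M2, 1152 in M1 and 74.6 in M0. Its M1 mean was 15.4-fold that of M0 (log2 ratio 3.95), and its log2 ratio of M2 over M0 was -0.74. Relative to B3GNT5, A4GALT was 4.76-fold higher in M2 than in M0 and 30.7-fold lower in M1 than in M0. Relative to ST3GAL5, A4GALT was 3.71-fold higher in M2 than in M0 (log2 difference 1.89) and 1.34-fold lower in M1 than in M0 (log2 difference -0.43). Relative to B4GALT5, which supplies the substrate, A4GALT was 2.22-fold higher in M2 than in M0 and 5.24-fold lower in M1 than in M0. The signs of these differences depend in part on the choice of A4GALT on the same comparisons. The B3GNT5 mean in M2 was also under the minimum of 50, so the differences are given as sizes only. These are ratios of transcripts. Enzyme activity and lipid were not measured.

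Of 98 genes in 10 lists of the wider pathway, which include the 8 above, 67 had a row and 66 reached a mean of at least 50 in at least 1 group. In M2 against M0, 1 of these 66 was at least 2-fold higher (1.52%) and 1 lower (1.52%), and the median log2 ratio was 0.02. In M1 against M0, 5 were higher (7.58%) and 3 lower (4.55%), with a median of -0.07. In M2 against M1, 5 were higher (7.58%) and 6 lower (9.09%), with a median of 0.03. The shares and medians of all genes for the same comparisons are given above, and the lists were chosen with earlier results known.

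Among the genes of ceramide synthesis, CERS6, a ceramide synthase that prefers palmitoyl-CoA, was the only one of 10 past 2-fold. Its mean was 75.5 normalized counts in M2, 154 in M1 and 64.4 in M0. The M1 mean was 2.39-fold that of M0, and M2 was 2.04-fold below M1, just past the limit. Over all genes 5.56% were at least 2-fold higher in M1 than in M0, and 5.72% lower in M2 than in M1. The 10 genes ranged from -0.75 to 0.32 on the log2 scale in M2 over M0.

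Ceramide is also the substrate of sphingomyelin synthases. SGMS2, the sphingomyelin synthase of the plasma membrane, was lower in both polarized groups, with means of 177 normalized counts in M2 and 75.8 in M1, against 880 in M0. It was 4.97-fold lower in M2 than in M0 and 11.6-fold lower in M1 than in M0, and its M2 mean was 2.33-fold its M1 mean. No other gene among 10 measured for the other fates of ceramide was past 2-fold in any comparison, beside the shares of all genes given above. Relative to SGMS2, UGCG was 3.18-fold higher in M2 than in M0 and 7.67-fold higher in M1 than in M0, although UGCG itself was lower in both. SGMS1, another sphingomyelin synthase, had higher means than SGMS2, at 3663 in M2, 2568 in M1 and 4609 in M0. Relative to SGMS1, UGCG was 1.24-fold lower in M2 than in M0 and 1.19-fold higher in M1 than in M0.

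**Figure D3:**
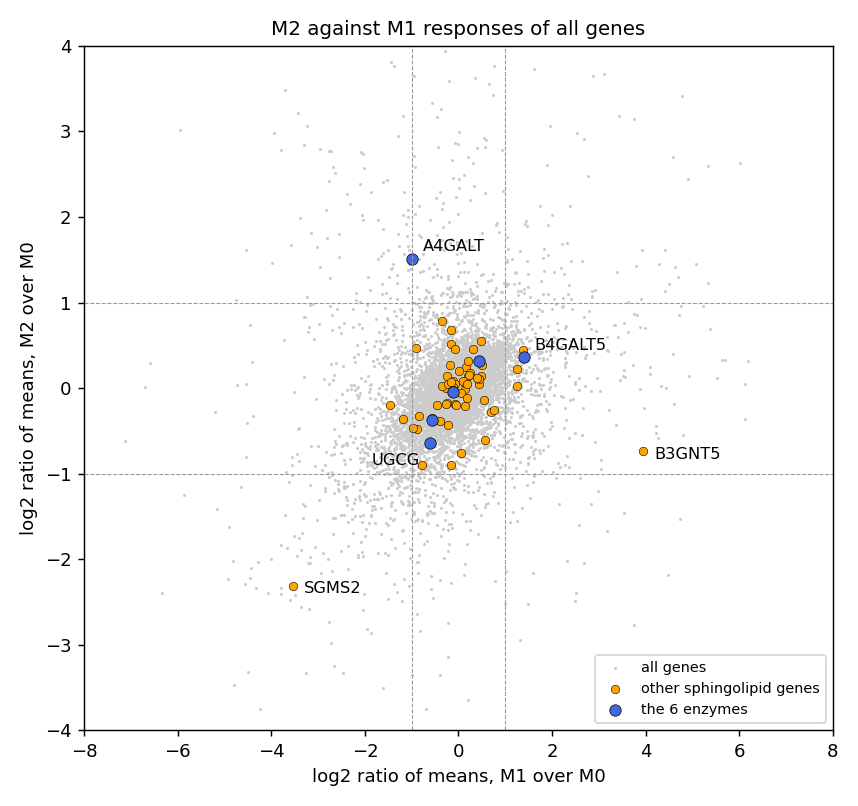
Log2 ratio of means of M1 over M0 (horizontal axis) against that of M2 over M0 (vertical axis) for 10902 genes with a mean of at least 50 in at least 1 group (gray; 21 lie outside the axes), the other sphingolipid genes (orange) and the 6 enzymes (blue), with dashed lines at 2-fold. Both axes share the M0 cultures, which ties them together, and A4GALT stands in the upper left at -0.99 and 1.51 while B4GALT5 stands to the right at 1.40 and 0.36.

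In the ganglioside list ST3GAL2, which sialylates the terminal galactose of complex gangliosides, was the one gene of 5 past 2-fold. Its mean was 4173 normalized counts in M2, 1741 in M1 and 4788 in M0, so that M1 was 2.75-fold below M0 and M2 was 2.40-fold above M1. Over all genes 8.77% were at least 2-fold lower in M1 than in M0, and 7.00% higher in M2 than in M1. In the globo list the other measured gene was GBGT1, which makes the Forssman antigen in dogs, with log2 ratios of -0.19 for M2 over M0 and -0.08 for M1 over M0. B3GALNT1, which extends globotriaosylceramide to globoside, had no row and was not analysed here.

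Of 8 measured transport and Golgi factors and 8 genes of sugar nucleotide supply, 0 were past 2-fold in M2 against M0, where 2.99% of all genes were higher and 3.49% lower. In M1 against M0 GNE was higher and LAPTM4A lower, and in M2 against M1 UGP2 was higher and TMEM165 and PGM1 were lower, beside the shares of all genes given above. LAPTM4A, a membrane protein that human cells need to make globotriaosylceramide, had means of 11249 normalized counts in M2, 6331 in M1 and 14426 in M0. It was 2.28-fold lower in M1 than in M0, as was A4GALT to a smaller degree, while in M2 its log2 ratio to M0 was -0.36. TM9SF2, which is also needed for that lipid in human cells, had log2 ratios of 0.07 for M2 and -0.15 for M1 over M0. TMEM165, a Golgi ion transporter required for galactosylation, had means of 2662 in M2, 5359 in M1 and 3187 in M0. It was 2.01-fold lower in M2 than in M1, at a log2 ratio of -1.01, just past the limit. Its log2 ratios to M0 were -0.26 for M2 and 0.75 for M1.

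GNE, which starts the synthesis of sialic acid, had means of 484 normalized counts in M2, 931 in M1 and 357 in M0, and its M1 mean was 2.61-fold that of M0. UGP2, which makes UDP-glucose, was 2.18-fold higher in M2 (5385) than in M1 (2471), with 3134 in M0. PGM1, which makes its substrate glucose 1-phosphate, was 2.26-fold lower in M2 (1839) than in M1 (4156), with 2805 in M0.

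Of 14 measured genes of sphingolipid breakdown, most of them lysosomal, 0 were past 2-fold in M2 against M0. Over all genes 2.99% were that much higher and 3.49% that much lower. In M1 against M0 SMPD1 was higher, and in M2 against M1 GALC was higher and SMPD1 lower, beside the shares of all genes given above. SMPD1, the acid sphingomyelinase, which cleaves sphingomyelin and not a glycosphingolipid, had means of 2044 normalized counts in M2, 4774 in M1 and 2010 in M0, and its M1 mean was 2.38-fold that of M0. GALC, which removes galactose from galactosylceramide, was 2.60-fold higher in M2 (1973) than in M1 (758), with 1429 in M0. GLA, the lysosomal enzyme that takes the terminal galactose off globotriaosylceramide, is named although it did not pass. Its means were 1247 in M2 and 1189 in M1, against 851 in M0, with log2 ratios to M0 of 0.55 for M2 and 0.48 for M1.

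The 5 named genes whose pair of ratios to M0 lay nearest to that of A4GALT were CD9, HAS2, SLC25A43, ANXA4 and ADD3. CD9, a tetraspanin, was the nearest, with 8549 normalized counts in M2, 1511 in M1 and 3129 in M0. HAS2, a hyaluronan synthase, had 3164 in M2, 584 in M1 and 1206 in M0. The distances on the log2 scale ran from 0.09 for CD9 to 0.17 for ADD3, a cytoskeletal adducin. Likeness here rests on 3 group means and says nothing of the samples. Of 10902 genes, 57 including A4GALT were at least as high in M2 over M0 and at least as low in M1 over M0 as A4GALT.

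The labels were checked on response genes and cell type markers. IDO1 and CXCL10 had their highest mean in M1, at 104559 and 105296 normalized counts, against 159 and 318 in M0. FCER2 and IL13RA2 had theirs in M2, at 3735 and 1821, against 51.5 and 130 in M0. CD209 was 62.0-fold higher in M2 than in M0 and also 7.89-fold higher in M1 than in M0. TIMP3 had 363 in M2, 4.99 in M1 and 5.40 in M0. CIITA, the regulator of class II genes, and GBP6, an interferon-inducible GTPase, were above M0 in both polarized groups, CIITA more so in M2 (15448 in M2, 10373 in M1 and 4989 in M0) and GBP6 more so in M1 (12964 in M2, 64030 in M1 and 4223 in M0). Of 9 macrophage markers 7 had a row, the lowest group mean among them being 1355 (MRC1 in M1). Their sum was 213335 in M2, 88137 in M1 and 246018 in M0, but the markers differed. AIF1 was higher in M1 (4525) than in M0 (3940). The others were lower in M1 than in M0, from 1.35-fold for CD68 to 5.20-fold for MRC1. CD14 and TYROBP had no row. T cell markers CD3D, CD3E and CD3G were present at means of 14.7 to 162, and like TRAT1 were highest in M2 and lowest in M1. CD3E had 162 in M2, 88.8 in M1 and 92.8 in M0. LCK was level, at 87.7 in M2, 87.6 in M1 and 88.7 in M0. CD2 went the other way, and made up 5032 of the sum in M1. The sum of all 6 T cell markers was 1264 in M2, 5254 in M1 and 1490 in M0. The B cell gene MS4A1 was at 14.4 to 18.2, but CD79A stood at 12039 in M2, 9856 in M1 and 10511 in M0. The 4 measured NK cell markers were at 28.6 or less and ITGA2B, the 1 platelet gene measured, at 42.8 or less, while none of the 5 fibroblast markers had a row. Sums were 116 in M2, 386 in M1 and 894 in M0 for 2 neutrophil markers, and 356 in M2, 92.8 in M1 and 1129 in M0 for 3 endothelial markers, of which TEK made up 947 in M0. The part of other cells in the ratios above was not tested.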

How the data were processed

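Messenger RNA of 9 canine macrophage cultures, 3 each of M2, M1 and M0, was sequenced. The authors' notes and methods name Partek Flow (version 7.0), in which reads passing a quality filter were mapped by STAR (version 2.7.3a) on the CanFam3.1 assembly, HTSeq for counting by gene and DESeq2 for the comparisons. The signal used is the deposited normalized count on the DESeq2 scale, a single least squares mean in each group, for 12696 protein coding genes, 1762 of them without a gene name. These means summed to 27312028 in M2, 28039918 in M1 and 26728643 in M0. The remaining columns and the short sheets hold the authors' own ratios, fold changes, p-values and FDRs, and were not used.

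Log2 ratios of the means were computed with no pseudocount (Python 3.11.15, numpy 2.4.6, pandas 2.3.3) and counted at 2-fold where the higher mean was at least 50. Ranks are among all genes of that comparison above that minimum. The ratio and the counting were checked on simulated data. Alternatives were other fold limits and minimums, pseudocounts, and other scalings. No test was run, since no values per sample were used.

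Named are the enzymes of the set, list members past 2-fold, the 5 genes nearest to A4GALT and response genes. SGMS1, TM9SF2, GBGT1, GLA and single markers were named after their values were seen. The members and lists were chosen with earlier results of these data known. No sequences were used here, and the RefSeq table at hand is of another assembly, in which all 8 enzymes are named.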

Additional observations from a re-analysis of the deposited data

How the results depend on the processing

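No paired analysis was possible because the values are 1 mean per group, and leaving out a dog could not be done for the same reason. Of 72 recomputed ratios of the 6 enzymes (18 ratios under 4 settings: pseudocounts of 1 and 10, equal sums, and centring on the median), 70 kept their side of 2-fold and 0 changed sign, with a largest shift of 0.07 on the log2 scale. The exceptions were both A4GALT in M1 over M0, which passed 2-fold at -1.06 with equal sums and at -1.004 with centring. In that comparison 2 enzymes instead of 1 were then counted. These settings could move little else. The lowest group mean among the 6 enzymes was 1051, far above the pseudocounts, and each scaling shifts all ratios of a comparison alike. With a limit of 0.5 on the log2 scale, 2 enzymes passed in M2 against M0 (A4GALT and UGCG) and 4 in M1 against M0 (A4GALT, UGCG, B4GALT5 and ST3GAL5). At that limit 7.80% of all genes were higher and 10.8% lower in M2 against M0. In M1 against M0 the shares were 16.8% and 19.3%. With a limit of 1.5, 0 passed in M1 against M0 and 1 in M2 against M1 (A4GALT), whose M2 over M0 ratio of 1.51 is only just past that limit. At 1.5 the shares of all genes were 2.80% higher and 4.28% lower in M1 against M0, and 3.96% and 3.05% in M2 against M1. Other minimums (10, 200 or none) left the counts at 2-fold as they were, as they had to, since every enzyme mean was above 200. Over all genes, limits of 0.5, 1 and 1.5 gave 2002, 700 and 320 genes in M2 against M0, 3886, 1546 and 764 in M1 against M0, and 3190, 1366 and 753 in M2 against M1. Neither the spread between dogs nor the depth of a sample enters any of these values, so no ratio can be set against variation between cultures. This holds for the small ratios of SPTLC1 or ST3GAL5 and for the large ones of A4GALT alike.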

Other observations

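Genes for the receptors of sphingosine 1-phosphate, a signaling lipid made from ceramide, were picked after their values were seen. S1PR1, which guides cells along gradients of this lipid, had a mean of 253 normalized counts in M2 and 63.9 in M1, against 1277 in M0. It was 5.06-fold lower in M2 than in M0 and 20.0-fold lower in M1 than in M0, the 43rd and 28th lowest ratios among 10787 and 10790 genes. S1PR3 had 62.2 in M2, 2.99 in M1 and 23.4 in M0, so that M2 alone reached the minimum of 50. S1PR2 and S1PR4 stayed short of 2-fold in each comparison, with log2 ratios to M0 of -0.16 and -0.10 in M2 and of 0.28 and -0.43 in M1.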
